A study of Solea senegalensis with 15 samples.

Results

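The redox and glutathione genes described here are 61 genes of the testis of Senegalese sole (Solea senegalensis), a flatfish. They were taken by their symbols, which had to name a glutathione peroxidase (gpx), glutathione transferase (gst, mgst), peroxiredoxin (prdx), thioredoxin-related protein (txn), glutaredoxin (glrx), superoxide dismutase (sod), catalase (cat), enzyme of glutathione synthesis or reduction (gclc, gclm, gss, gsr), haem oxygenase (hmox), methionine sulfoxide reductase (msra, msrb), sestrin (sesn), NADPH oxidase (nox, duox), metallothionein (mt2) or one of the nfe2l and keap1 regulators. Symbols of nqo1, srxn1, cyba, cybb and mt1 were sought too, but no gene in the counts table carried one. Of 65 genes with any of the symbols sought among the 28921 in the counts table, 61 reached 50 counts in at least 1 of the 15 fish and are the members. Just inside were msrb1b, with a highest count of 75, and msrb2, with 148. Just outside was gpx9, with a highest count of 46, while gpx8, nox5 and txndc15 were listed at 0 in the 15 fish. Of the members, msrb1b reached 50 counts only in saline fish 63, 66 and 68, which came from the group with the deepest libraries. Genes that carry only an identifier, 39.9% of the 21227 tested, could not be found by symbol, so further redox genes may be among them.

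Farmed males, 2 years old and bred from wild parents, received saline, recombinant sole follicle-stimulating hormone (rFsh, 18 µg/kg) or recombinant sole luteinizing hormone (rLh, 18 µg/kg) into the muscle once a week for 6 weeks. A library was made from the testis of each of 5 fish per group, and each fish is called here by its group and number. Depth ran from 50.7 to 109.8 M reads assigned to genes, and the median library had 79.9 M in saline, 61.2 M in rFsh and 60.9 M in rLh. The labels call the testis material a biopsy, and the tested markers of germ, Sertoli and Leydig cells were above 1 CPM (counts per M reads) apart from pou5f3, tekt3 and hsd17b3. On the first principal component over all genes, which carried 19.6% of the variance, saline 68 lay at 25.3 while the other saline fish lay between -42.9 and -20.5. On the same component rFsh 69 lay at -7.84 and the other rFsh fish between 14.5 and 43.2. Both fish thus lay toward the other group.

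Cells of the testis make superoxide and hydrogen peroxide as products of respiration and through NADPH oxidases. Superoxide dismutases turn superoxide into hydrogen peroxide, which catalase, glutathione peroxidases and peroxiredoxins then reduce. The glutathione and thioredoxin systems return glutathione peroxidases, peroxiredoxins and oxidized proteins to the reduced state with electrons from NADPH. In mammals, NRF2 (nfe2l2) switches on many of these genes when KEAP1 (keap1) no longer holds it for degradation, and sperm are known to be prone to lipid peroxidation.

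edgeR called no redox gene for either hormone when all 15 fish were fitted, and DESeq2 called 1. edgeR's quasi-likelihood test over all 15 fish, with Benjamini-Hochberg adjustment over the 21227 genes, called 0 of 61 members for rFsh against saline, where 0.0471% of all genes were called. It called 0 of 61 members for rLh against saline and 0 of 61 for rLh against rFsh, where 0% of all genes were called in each. At an unadjusted p under 0.05 the same test found 8 members for rFsh against saline (17.2% of all genes), 5 for rLh against saline (13.2%) and 9 for rLh against rFsh (9.91%). DESeq2 on the same fish called 1 member for rFsh against saline, nfe2l3 (2.93% of all genes), 0 for rLh against saline (0.221%) and 0 for rLh against rFsh (0.636%). It gave nox1 no adjusted p in any comparison, so these counts rest on the other members. Fitted without rFsh 69, edgeR called 4 members for rFsh against saline, namely nfe2l3, msra, txndc5 and gsr (4.72% of all genes), and without saline 68 it called nfe2l3 (2.99%). Each of these fish lay toward the other group, so leaving it out widens the difference by construction, and these calls support nothing. Leaving out any other single fish called no member. On 12 fish, without rFsh 62, rLh 68 and saline 68, edgeR called 0 members in each comparison. The shares of all genes in the edgeR alternatives with 0 members are not given here, so each such 0 is no result about the members. DESeq2 on these 12 fish called nfe2l3, msra and duox after rFsh (3 members, 5.87% of all genes), prdx1, gstcd, sesn1 and sesn2 after rLh (4, 10.6%) and gstcd, sesn2 and duox between the hormones (3, 3.19%). Leaving out saline 68 also widens the difference from rFsh by construction. rLh 68, also left out, was the rLh fish nearest saline for gstcd and sesn1 and the highest rLh fish for duox. For prdx1, saline 68 was the highest saline fish and rLh 68 the lowest rLh fish, and for sesn2 the reverse. rFsh 62 lay the other way, with the highest value on the first component and the highest msra of rFsh. The 12 fish are the set whose mean counts match those tabulated by the study. Leaving out saline 68 and rLh 68 widens several of these differences, so no conclusion is drawn from the calls on 12 fish. Both hormone comparisons with saline share its 5 fish, so their values are not independent. In these bulk samples, a change in the number of cells of a type and a change in RNA per cell cannot be told apart.

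The fitted differences were small. The median log2 fold change of the members was 0.06 for rFsh against saline, with 37 members higher and 24 lower, and the median of all genes was 0.01. For rLh against saline it was -0.01, with 29 higher and 32 lower, and 0.01 over all genes. For rLh against rFsh it was -0.05, with 21 higher and 40 lower, and -0.01 over all genes. A 95% interval of the fold change lay wholly within 1.5-fold for 50 members after rFsh, for 50 after rLh and for 52 between the hormones, while 59.999%, 60.97% and 62.14% of all genes had such an interval. Within 2-fold lay the intervals of 60, 60 and 59 members, and of 86.2%, 87.9% and 87.1% of all genes. The exceptions to the 2-fold range were nox1 in each comparison and msrb2 between the hormones. The members had a higher median level than all genes, 5.61 against 4.15 log2 CPM. The part of level in these shares was not tested.

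**Figure D1:**
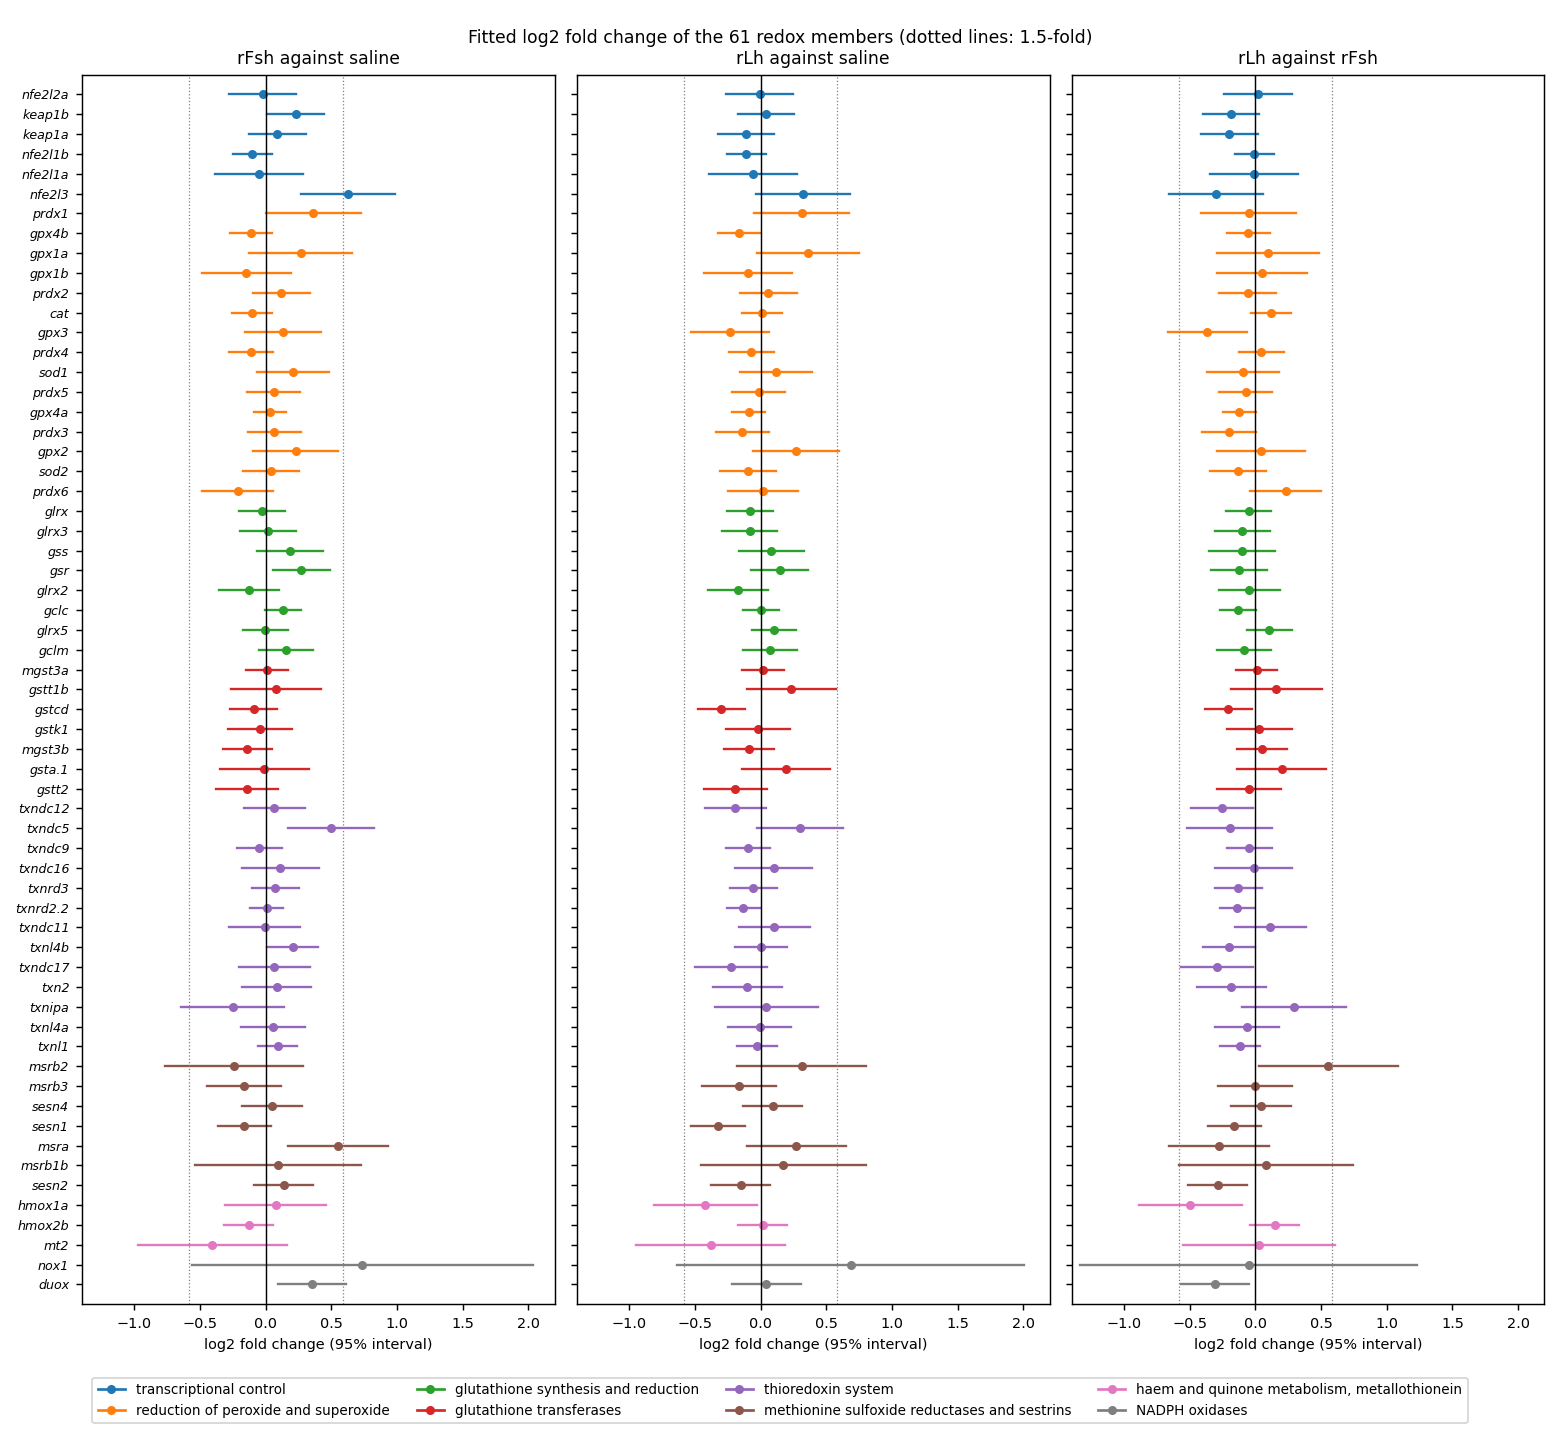
Fitted log2 fold change (x axis) of each of the 61 members (y axis, coloured by role) with its 95% interval from edgeR, for each hormone against saline and for the hormones against each other, 5 fish per group. Most intervals lie between the dotted lines at 1.5-fold, the estimate of nfe2l3 after rFsh is the highest apart from nox1, and nox1 has the widest interval.

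Among the regulators, the gene with the smallest p was nfe2l3 (gene 122786409, linkage group 20, bases 7494150 to 7500466 of assembly IFAPA_SoseM_1), a transcription factor of the same family as NRF2. Levels are given in CPM scaled with TMM factors, in the order of fish number, and an error after a log2 value is its SE. Its levels were 61.5, 48.0, 55.5, 53.6 and 75.1 CPM in the saline fish 63, 64, 66, 67 and 68. They were 97.2, 102, 91.1, 113 and 50.3 CPM in the rFsh fish 61, 62, 64, 68 and 69. They were 68.6, 71.2, 79.0, 80.7 and 67.8 CPM in the rLh fish 63, 64, 66, 67 and 68. The first 4 rFsh fish lay above every saline fish, whereas rFsh 69 lay among the lowest saline fish, so the groups overlapped. The 8 spermatocyte markers tested also had their highest sums in those 4 rFsh fish, 851 to 912 CPM. They summed to 668 CPM in rFsh 69, which was above each saline fish. The means of nfe2l3 were 58.7 ± 10.3 CPM in saline, 90.7 ± 23.9 in rFsh and 73.5 ± 5.99 in rLh (SD, n = 5). The log2 fold change was 0.62 ± 0.17 for rFsh against saline, with an adjusted p of 0.131 by edgeR and 0.0292 by DESeq2. Without rFsh 69 it was 0.77 with an edgeR adjusted p of 0.00450, and without saline 68 it was 0.73 with 0.0436. Both fish lay toward the other group, so leaving out either widens the difference by construction. The same holds for the values without rFsh 69 given for other members below, except nox1, where leaving it out turned the sign. Over 27 other settings (scalings, filters, tools, or fish left out singly or as a set) the adjusted p ran from 0.00450 to 0.293. For rLh against saline the log2 fold change was 0.32 ± 0.17 (edgeR adjusted p = 0.421).

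The other regulators had smaller estimates. keap1b, one of 2 copies of the NRF2 inhibitor, averaged 92.0 ± 10.7 CPM in saline and 108 ± 13.2 in rFsh (SD, n = 5), a log2 fold change of 0.23 ± 0.10 with an edgeR adjusted p of 0.267. For nfe2l2a, the NRF2 gene, the log2 fold change was -0.02 after rFsh (95% interval -0.28 to 0.23) and -0.01 after rLh (-0.26 to 0.25). Its span overlaps that of hnrnpa3, and counting without strand cannot part reads from any stretch of exon that both share. Whether they share one was not checked. The log2 fold changes of nfe2l1a, nfe2l1b and keap1a lay between -0.10 and 0.09 after rFsh and between -0.11 and -0.06 after rLh.

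msra (gene 122784164, linkage group 17, bases 19373421 to 19406445), which repairs oxidized methionine in proteins, had a pattern over the fish like that of nfe2l3. Its levels were 99.7, 96.9, 92.1, 121 and 148 CPM in saline, 181, 202, 172, 173 and 88.5 CPM in rFsh and 117, 139.6, 142, 146 and 128 CPM in rLh. All rFsh fish but rFsh 69 lay above the saline fish, and rFsh 69 lay below all of them. rFsh differed from saline by 0.55 ± 0.18 on the log2 scale (edgeR adjusted p = 0.171, DESeq2 0.0768). Without rFsh 69 it was 0.70, with an edgeR adjusted p of 0.00911, and over the 27 other settings the adjusted p ran from 0.00911 to 0.342. For rLh against saline it was 0.27 ± 0.18 (edgeR adjusted p = 0.504).

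txndc5 (gene 122773524, linkage group 1, bases 21355189 to 21361810) encodes a protein disulfide isomerase of the endoplasmic reticulum. Its span overlaps bmp6, and whether they share exons was not checked, so its reads are uncertain. It was at 191, 172, 144, 156 and 204 CPM in saline, at 237, 292, 273, 276 and 146 CPM in rFsh and at 203, 247, 209, 211 and 197 CPM in rLh. The rFsh fish other than rFsh 69 were again the highest against saline. The log2 fold change was 0.50 ± 0.15 after rFsh (edgeR adjusted p = 0.160) and 0.30 ± 0.15 after rLh (edgeR adjusted p = 0.410). Without rFsh 69 the value after rFsh was 0.63, with an adjusted p of 0.00804, in a range from 0.00804 to 0.330 over the 27 other settings.

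The genes of glutathione synthesis and reduction were grouped with the glutaredoxins. Of these 8 genes, gsr (gene 122778877, linkage group 12, bases 4747335 to 4756724), glutathione reductase, had the largest difference after rFsh. It was at 66.4, 58.9, 65.8, 57.4 and 64 CPM in saline and 83.1, 80.0, 75.3, 83.2 and 55.7 CPM in rFsh, where rFsh 69 was below each saline fish and the other rFsh fish above each. In rLh it was at 70.5, 66.2, 68.5, 78.9 and 61.5 CPM. The log2 fold change was 0.27 ± 0.10 after rFsh (edgeR adjusted p = 0.205), and without rFsh 69 it was 0.36 with an adjusted p of 0.0227 (0.0227 to 0.380 over the 27 other settings). gclc and gclm, the subunits of the enzyme that limits glutathione synthesis, had log2 fold changes of 0.13 and 0.16 after rFsh, and gss, the next enzyme, had 0.18. After rLh the 3 values were 0.00335, 0.07 and 0.08. gclc was one of the steadiest members, at 25.7 to 30.1 CPM in saline, 29.0 to 32.1 in rFsh and 27.2 to 29.2 in rLh. The 4 glutaredoxins glrx, glrx2, glrx3 and glrx5 lay between -0.13 and 0.02 after rFsh and between -0.17 and 0.10 after rLh on the log2 scale.

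The NADPH oxidases differed between single fish. duox, dual oxidase, which makes hydrogen peroxide, was at 69, 75.7, 70.4, 74.3 and 76.3 CPM in saline, 101, 86.4, 102, 102 and 75.3 CPM in rFsh and 72.2, 59.1, 68.3, 75.8 and 102 CPM in rLh. The rFsh fish were above the saline fish except rFsh 69, and rLh 68 was at the level of the rFsh fish. The log2 fold change was 0.35 ± 0.12 for rFsh against saline (edgeR adjusted p = 0.182) and -0.31 ± 0.12 for rLh against rFsh (edgeR adjusted p = 0.460). Without rFsh 69 these were 0.42 (edgeR adjusted p = 0.0586) and -0.37 (0.138). nox1, which passes electrons to oxygen to give superoxide, was at 2.53, 2.94, 3.20, 1.27 and 1.75 CPM in saline, 1.63, 1.36, 2.01, 2.09 and 12 CPM in rFsh and 3.28, 1.90, 2.19, 2.31 and 9.88 CPM in rLh. Single fish, rFsh 69 and rLh 68, stood far above the rest, which lay between 1.27 and 3.28 CPM. The fitted log2 fold change of nox1 was 0.74 ± 0.61 after rFsh (edgeR adjusted p = 0.557) and 0.69 ± 0.62 after rLh (edgeR adjusted p = 0.635). The 95% intervals, -0.57 to 2.04 after rFsh and -0.64 to 2.01 after rLh, each included 0. Without rFsh 69 the value after rFsh was -0.42 (edgeR adjusted p = 0.643), and without rLh 68 the value after rLh was 0.04 (edgeR adjusted p = 0.982). The direction after rFsh thus turned on 1 fish.

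**Figure D2:**
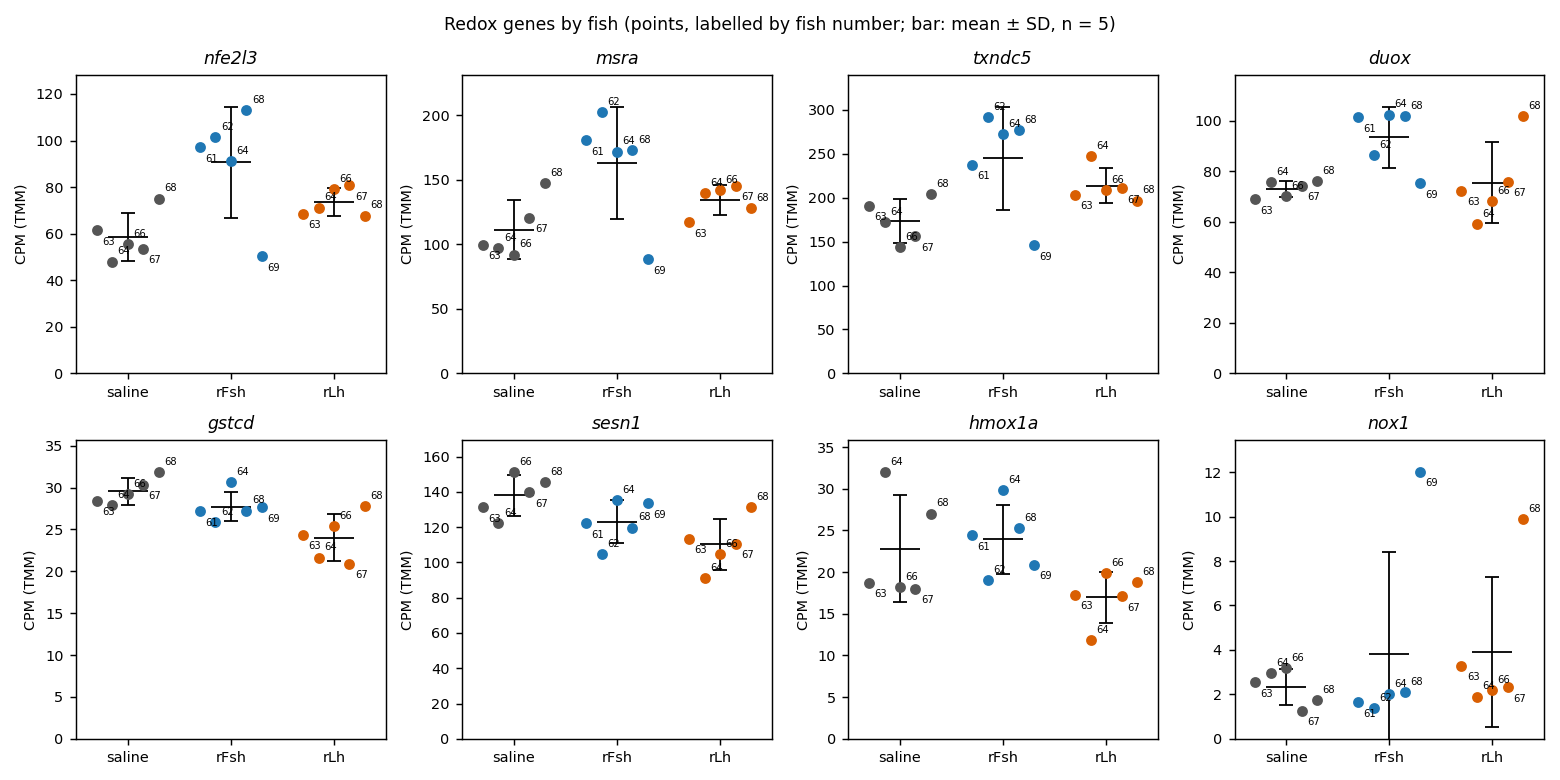
Level in CPM (y axis, from 0) of 8 members in each fish, by group (x axis). Points are fish with their numbers and bars are the mean ± SD of 5 fish. rFsh 69 lies with or below the saline fish for nfe2l3, msra and txndc5, and nox1 is high only in rFsh 69 and rLh 68.

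After rLh the members with the smallest p were lower. gstcd (gene 122771624, linkage group 6, bases 23100004 to 23142048), named for a glutathione transferase domain, was at 28.4, 27.9, 29.2, 30.4 and 31.9 CPM in saline and 24.4, 21.6, 25.4, 20.9 and 27.8 CPM in rLh, and at 27.2, 25.9, 30.6, 27.2 and 27.6 CPM in rFsh. Each rLh fish was below each saline fish, though the highest rLh fish and the lowest saline fish nearly met. It was the only 1 of 61 members whose saline and rLh fish did not overlap, against 2.1% of all genes. In gstcd the log2 fold change for rLh against saline was -0.30 ± 0.08 (edgeR adjusted p = 0.344, DESeq2 0.0705), and over the 27 other settings the adjusted p ran from 0.00342 to 0.609. After rFsh no member had groups that did not overlap, against 1.72% of all genes.

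sesn1 (gene 122783762, linkage group 17, bases 11329258 to 11377724) belongs to the sestrins, proteins induced by stress that restrain growth signalling in mammals. It was at 131, 122, 151, 139.8 and 145 CPM in saline, 122, 105, 135, 119.8 and 134 CPM in rFsh and 113, 91.2, 105, 110.5 and 131 CPM in rLh. The rLh fish other than rLh 68 were below the saline fish. Its log2 fold change was -0.32 ± 0.10 for rLh against saline (edgeR adjusted p = 0.344, DESeq2 0.122), in a range of adjusted p from 0.00349 to 0.609 over the 27 other settings. sesn2 had -0.15 ± 0.11 for rLh against saline and -0.29 ± 0.11 for rLh against rFsh (edgeR adjusted p = 0.446), while sesn4 had 0.09 and 0.04.

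hmox1a (gene 122774297, linkage group 9, bases 8924941 to 8927096), the haem oxygenase that stress induces in mammals, was at 18.7, 32.0, 18.2, 18.0 and 27.0 CPM in saline, 24.4, 19.1, 29.9, 25.3 and 20.9 CPM in rFsh and 17.3, 11.8, 19.9, 17.1 and 18.8 CPM in rLh. Saline 64 and saline 68 were high, the other saline fish overlapped the rLh fish, and rLh 64 was the lowest of the 15. Fitted log2 differences were -0.42 ± 0.18 for rLh against saline (edgeR adjusted p = 0.359) and -0.49 ± 0.19 for rLh against rFsh (edgeR adjusted p = 0.450), and the former was -0.27 without saline 64. hmox2b, its constitutive relative, had 0.02 after rLh. mt2, a metallothionein that binds zinc and copper, ranged from 9.47 to 32.1 CPM within saline alone, and its log2 fold change was -0.41 ± 0.27 after rFsh and -0.38 ± 0.27 after rLh, or -0.15 and -0.12 without saline 66.

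Between the hormones, msrb2 and txnrd2.2 were the 2 of 61 members whose rFsh and rLh fish did not overlap, against 1.54% of all genes. txnrd2.2 (gene 122769915, linkage group 5, bases 23451218 to 23470177), a thioredoxin reductase by its symbol, was at 35.3, 36.6, 35.4, 36.3 and 36.8 CPM in rFsh, 31.9, 33.4, 33.8, 31.1 and 33.7 CPM in rLh and 32.7, 35.9, 38.5, 35.6 and 36.8 CPM in saline. The difference was small and the spread within each hormone group smaller still, while the saline fish overlapped both groups. rLh differed from rFsh by -0.14 ± 0.06 on the log2 scale (edgeR adjusted p = 0.488). msrb2, a methionine sulfoxide reductase for the other form of oxidized methionine, was near the count minimum, at 0.955, 0.909, 1.44, 1.38 and 1.22 CPM in rFsh, 1.46, 1.82, 1.79, 1.49 and 2.13 CPM in rLh and 0.890, 2.15, 1.15, 1.78 and 1.19 CPM in saline. The highest rFsh fish and the lowest rLh fish nearly met, at 87 and 88 reads, and the saline fish spanned both hormone groups. For msrb2 the log2 difference of rLh from rFsh was 0.56 ± 0.25 (edgeR adjusted p = 0.496). gpx3, the glutathione peroxidase secreted into plasma in mammals, was at 6.41 to 8.93 CPM in rFsh and 5.73 to 7.12 CPM in rLh, with -0.37 ± 0.14 on the log2 scale (edgeR adjusted p = 0.457). txndc12 and txndc17 had log2 fold changes of -0.26 and -0.29 between the hormones.

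The 15 enzymes that reduce peroxide and superoxide had a median log2 fold change of 0.06 after rFsh, -0.01 after rLh and -0.05 between the hormones. prdx1, a cytosolic peroxiredoxin, was at 95.7, 73.4, 85.6, 91.2 and 115 CPM in saline, 113, 182, 97.9, 114 and 87.4 CPM in rFsh and 109, 138, 107, 120.5 and 98.9 CPM in rLh. rFsh 62 stood far above the other fish and rFsh 69 within the saline range. For prdx1 the log2 fold change was 0.36 ± 0.17 after rFsh (edgeR adjusted p = 0.290) and 0.31 ± 0.17 after rLh (edgeR adjusted p = 0.431). Without rFsh 62 the value after rFsh was 0.16 (edgeR adjusted p = 0.613), and without rFsh 69 it was 0.45 (edgeR adjusted p = 0.123). gpx1a had the highest estimate of the 15 after rLh, 0.36 ± 0.18 (edgeR adjusted p = 0.408), and 0.26 ± 0.18 after rFsh (edgeR adjusted p = 0.470). Catalase differed by -0.11 ± 0.07 after rFsh and 0.01 ± 0.07 after rLh. The superoxide dismutases sod1, of the cytosol, and sod2, of mitochondria, differed by 0.21 and 0.04 after rFsh and by 0.11 and -0.09 after rLh. gpx4a and gpx4b, copies of the peroxidase that protects membrane lipids and that builds part of the sperm midpiece in mammals, had 95% intervals of -0.09 to 0.16 and -0.27 to 0.05 after rFsh and of -0.21 to 0.04 and -0.33 to just below 0 after rLh on the log2 scale. Reads shared by such copies, also of gpx1, keap1, nfe2l1 and mgst3, may have been lost or split in counting.

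The 7 glutathione transferases had a median log2 fold change of -0.05 after rFsh and -0.02 after rLh. Apart from gstcd they lay between -0.14 and 0.08 after rFsh and between -0.19 and 0.23 after rLh. The 13 genes with thioredoxin symbols had a median of 0.07 after rFsh, of -0.03 after rLh and of -0.13 for rLh against rFsh, where 11 were lower and 2 higher. txnipa, which binds thioredoxin and blocks it, differed by -0.25 ± 0.18 after rFsh, by -0.44 without rFsh 69, and by 0.04 ± 0.18 after rLh. txnl4a and txnl4b carry the name for a shared fold and act in splicing. txnl4b had an unadjusted p of 0.0413 after rFsh with a log2 fold change of 0.20 ± 0.09 (edgeR adjusted p = 0.272).

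**Figure D3:**
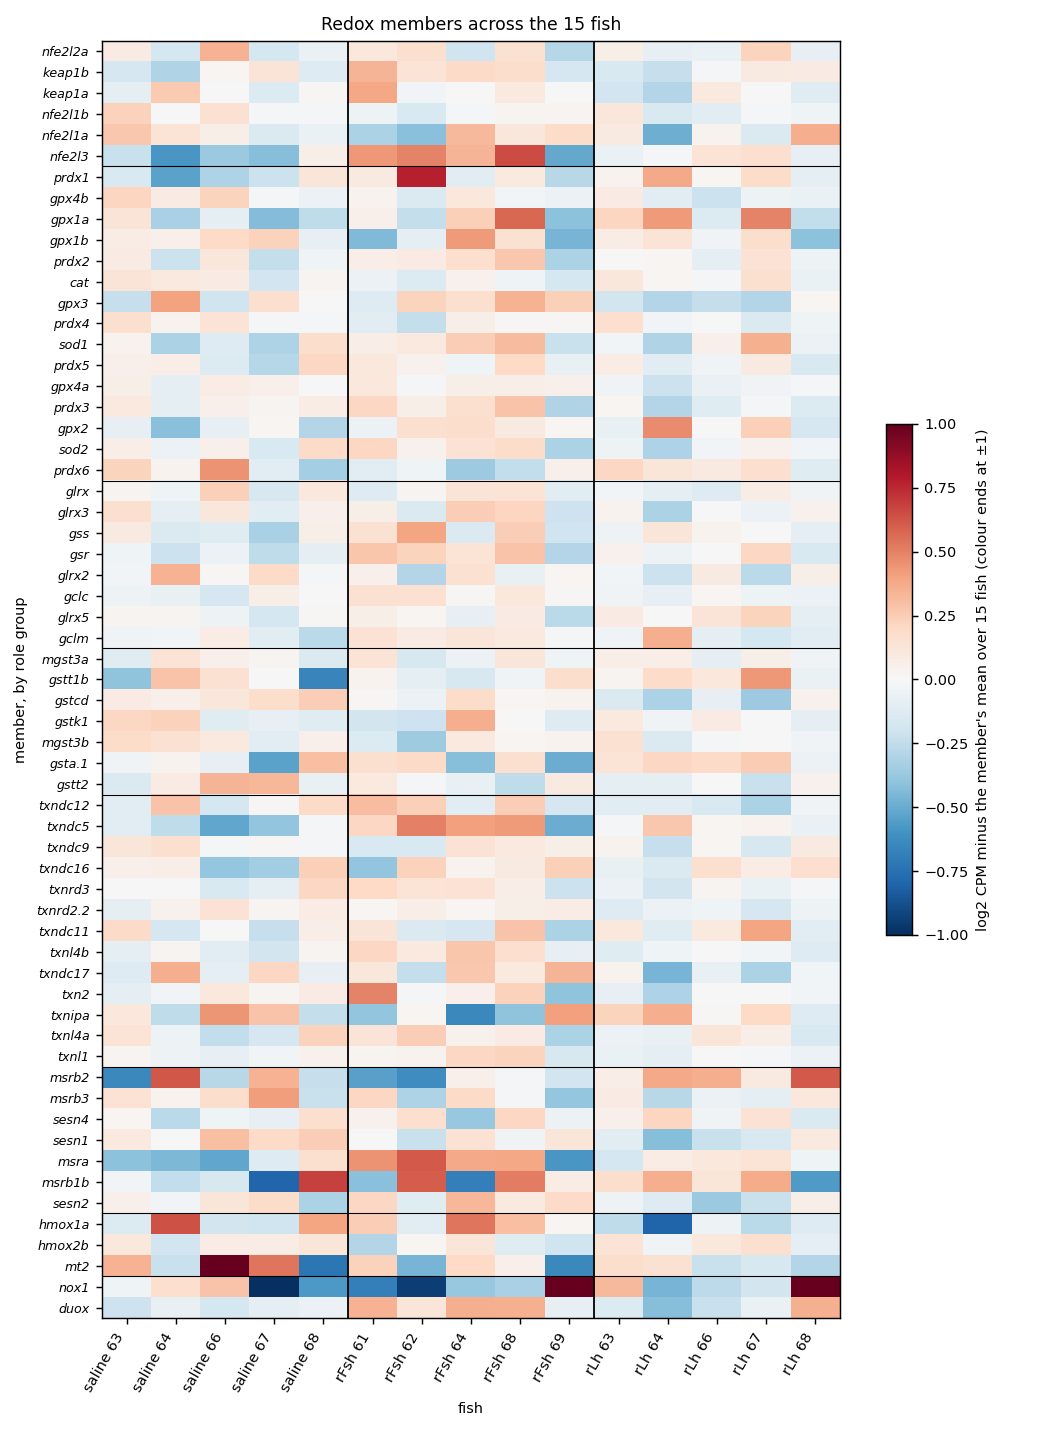
Log2 CPM of the 61 members (rows, in role groups parted by lines) in the 15 fish (columns, in groups parted by lines) minus each member's mean over the 15 fish, with colour ending at ±1. Within rFsh, fish 69 is the lowest for 31 members, and nox1 is darkest red in rFsh 69 and rLh 68.

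The spread between fish of the same group was below that of the median gene for most members. The SD of log2 CPM between fish of a group, pooled over the 3 groups, had a median of 0.18 over the members and 0.24 over all genes, and 46 of 61 members were below the latter. The members also had a higher median level, 5.61 against 4.15 log2 CPM, and the part of level in the smaller spread was not tested. txnrd2.2, gpx4a and gclc were the steadiest, at SDs of 0.06, 0.07 and 0.07, and lay at the 0.495, 0.758 and 0.989 percentile of all genes. nox1, mt2, msrb1b and msrb2 were the most variable. rFsh 69 was the lowest rFsh fish for 31 of 61 members, against 25.1% of all genes, and rFsh 68 for 1, against 14.6%. In rLh, fish 64 was lowest for 24 members and fish 68 for 23, against 26.9% and 26.4% of all genes.

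**Figure D4:**
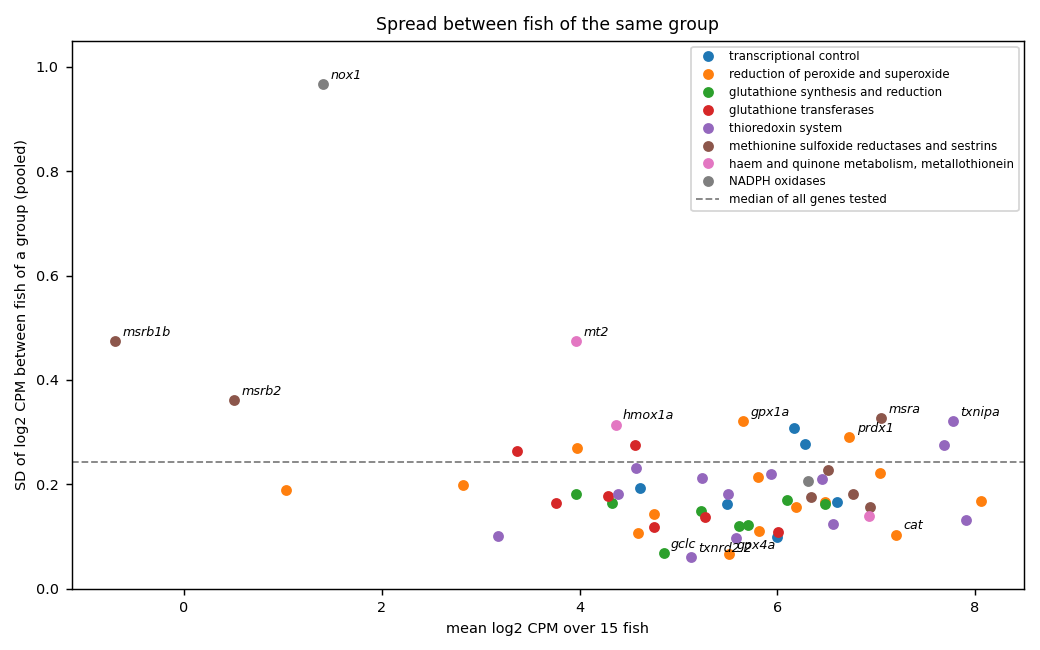
SD of log2 CPM between fish of the same group, pooled over the 3 groups (y axis), against the mean log2 CPM over 15 fish (x axis), a point per member coloured by role, with the median of all genes as a dashed line. Most members lie below the line of 0.24, txnrd2.2, gpx4a and gclc lie lowest and nox1 lies highest.

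Sums of cell type markers were set beside the levels of nfe2l3 and msra. The 8 tested of 14 listed spermatocyte markers, such as sycp1 and dmc1, summed to 527 to 642 CPM in saline and to 658 to 706 CPM in rLh. They summed to 851 to 912 CPM in rFsh 61, 62, 64 and 68 and to 668 CPM in rFsh 69. rFsh 69 thus had the lowest sum of its group, as it had the lowest nfe2l3 and msra. Its sum was still above that of each saline fish, whereas its msra was below each. Within saline, fish 68 was highest for both genes, while its sum of 634 CPM was below those of saline 63 and 67. No marker of this list was below 1 CPM. The 8 tested of 13 listed B and T cell markers summed to 45.6 to 117 CPM in saline, 165 to 674 in rFsh and 105 to 198 in rLh, with cd79b, cd8a and rag1 below 1 CPM. Leydig cell markers, 6 tested of 12, summed to 862 to 2397 CPM in saline, 805 to 3020 in rFsh and 1547 to 3134 in rLh, with rFsh 69 the lowest of its group. Sertoli cell markers, 8 tested of 12, summed to 2739 to 3831 CPM in saline, 2443 to 3104 in the other 4 rFsh fish, 3811 in rFsh 69 and 2974 to 3438 in rLh. Red blood cell markers, 5 tested of 18, summed to 371 to 467 CPM in saline, 436 to 562 in the other 4 rFsh fish, 386 in rFsh 69 and 364 to 478 in rLh. These 5 were alas2, sptb, tfr1a, urod and fech, with no haemoglobin gene. tfr1a alone averaged 255 CPM in saline, 315 in rFsh and 254 in rLh, so this sum rests mostly on 1 gene and says little about red blood cells. rFsh 69 thus also stood outside the range of the other rFsh fish for the sums of Leydig cell, Sertoli cell, red blood cell and B and T cell markers, and of liver and plasma markers (99.1 CPM against 62.9 to 94.0). The summed markers of Leydig cells, Sertoli cells and red blood cells overlapped between the groups. So did those of phagocytes, skeletal muscle, liver and plasma, spermatogonia and spermatids. The part of these cell types in the levels of the redox genes was not tested.

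**Figure D5:**
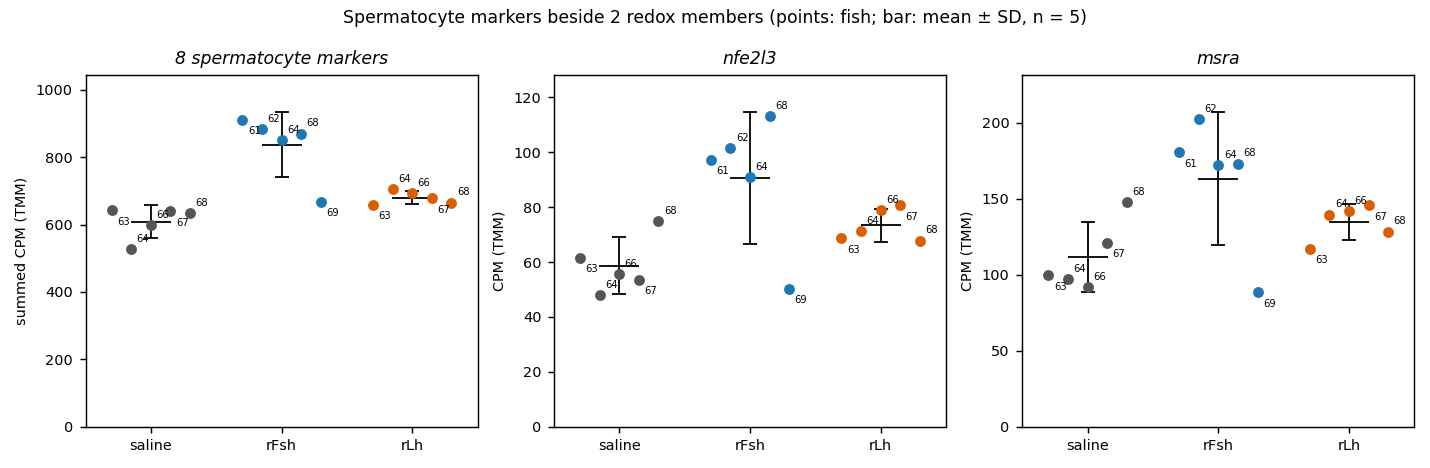
Summed level of 8 spermatocyte markers, and levels of nfe2l3 and msra, in CPM (y axes, from 0) by group (x axis). Points are fish with their numbers and bars are the mean ± SD of 5 fish, and in each panel rFsh 69 lies below the other 4 rFsh fish.

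Genes that work with the members were counted in 6 lists, the members left out. edgeR called 0 genes of any list in the 3 comparisons. At an unadjusted p under 0.05 for rFsh against saline it found 5 higher and 4 lower among 19 genes of NADPH supply, 1 and 1 among 20 selenoprotein genes, 1 and 3 among 26 genes of glutathione turnover and transport, 3 and 1 among 18 genes of iron handling and ferroptosis, 2 and 2 among 16 partners of NRF2, and 1 and 1 among 13 partners of the NADPH oxidases, where 17.2% of all genes in either direction had such a p. For rLh against saline the counts were 1 and 3, 1 and 0, 1 and 2, 2 and 1, 3 and 1, and 1 and 1 in the same order, against 13.2% of all genes. For rLh against rFsh they were 2 and 2, 2 and 0, 0 and 0, 1 and 1, 0 and 0, and 2 and 0, against 9.91%. DESeq2 called 1 gene in all, noxo1a, an organizer of the NOX1 complex in mammals, as lower after rFsh, where it called 2.93% of all genes, and as higher in rLh than in rFsh, where it called 0.636%. noxo1a was at 3.93 ± 4.81 CPM in saline, 0.718 ± 0.451 in rFsh and 4.91 ± 2.76 in rLh (SD, n = 5), and its SD in saline was larger than its mean. Its log2 fold change was -2.46 ± 0.80 after rFsh (edgeR adjusted p = 0.171, DESeq2 0.0108) and 2.74 ± 0.81 for rLh against rFsh (edgeR adjusted p = 0.400, DESeq2 0.00445). Of the genes of NADPH supply, mthfd2, a mitochondrial folate enzyme, had the smallest p after rFsh, with a log2 fold change of -0.45 ± 0.14 (edgeR adjusted p = 0.161).

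The members are spread over the genome. In the annotation 57 of 61 lie on 21 linkage groups and 4 on unplaced sequence, and gclc and gsta.1 lie 47269 bases apart on linkage group 15. The spans of 8 members overlap another gene, namely txndc5, txndc9, nfe2l2a, txndc16, glrx, gpx2, glrx5 and gstt2. Whether exons are shared was not checked, so their counts are uncertain.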

How the data were processed

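Testis RNA of 15 fish was sequenced as modified SMARTseq2 libraries, 1 per fish, in pairs of 100 bp on a NovaSeq. The deposited table holds counts of whole reads, not normalised, for each gene. The authors trimmed reads with Cutadapt 3.4, aligned them with Subread 2.0.1 to the sole genome and assigned them to genes with RSubread at default parameters, without molecular identifiers. The labels' protocol gives 4 libraries per group, while the table holds 5, and all 15 were used. Groups came from the labels.

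Genes with 50 counts in at least 1 fish were fitted with edgeR 4.0.16 in R 4.3.3 (quasi-likelihood F test, two-sided, TMM factors, 1 mean per group, no covariate), with Benjamini-Hochberg adjustment over all genes and a threshold of 0.05. DESeq2 1.42.0 was run on the same genes. Fits were also run on simulated counts, and the outcome is not given here. No simulated fish was made to lie toward another group, so the simulation does not bear on results that turn on single fish. Log2 CPM for spread and components used a prior count of 2. Other tools were Python 3.11.15, pandas 2.3.3 and matplotlib 3.10.9. Alternatives were other scalings, filters and tools, 12 fish (without rFsh 62, rLh 68 and saline 68, the set picked because its mean counts match those tabulated by the study), the fish number as a block, only the groups compared, and leaving out each fish. 1 further alternative was added after seeing the data.

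Members were named if called by edgeR or DESeq2, among the 5 smallest p of a comparison, by role, or near the count minimum. Some that qualified by role alone are given only within the counts and medians of their group. The members and lists were chosen with earlier results of these data known. Levels per exon length, sequences and promoter motifs were not used here. Names and positions came from the RefSeq annotation of assembly IFAPA_SoseM_1.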

Additional observations from a re-analysis of the deposited data

Results flagged for a closer look

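In 11 of 183 sets of 5 fish, 61 members in 3 groups, 1 fish lay farther from its neighbour than Dixon's limit of 0.71 of the range, which chance passes in about 1 in 20 groups. The sets were 1 in saline, 5 in rFsh and 5 in rLh, against 7.57%, 8.54% and 7.46% of all genes in these groups.

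rFsh 69 was apart for nox1 (12 CPM, next 2.09), msra (88.5 CPM, next 172) and gsr (55.7 CPM, next 75.3), high for the first and low for the others. rLh 68 was high for nox1, at 9.88 CPM with the next fish at 3.28.

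rLh 64 was high for txndc5 (247 CPM, next 211) and gclm (48.1 CPM, next 36.3), and low for sod2 (72.3 CPM, next 86.8) and txn2 (70.4 CPM, next 82.3). rFsh 62 was high for prdx1 (182 CPM, next 114), rFsh 61 was high for keap1a (58.7 CPM, next 48.0), and saline 64 was low for hmox2b (107 CPM, next 129).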

How the results depend on the processing

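The count of 0 members called did not hold under every alternative, and where it moved the number of genes called over all genes moved too. DESeq2 called 1 member, nfe2l3, for rFsh against saline, where it called 622 genes in place of edgeR's 10, 47 in place of 0 for rLh against saline and 135 in place of 0 between the hormones. On 12 fish edgeR called 0 members in each comparison, whereas DESeq2 called 3 for rFsh against saline (msra, nfe2l3 and duox, of 1242 genes, 5.87%), 4 for rLh against saline (prdx1 higher, and gstcd, sesn1 and sesn2 lower, of 2237 genes, 10.6%) and 3 for rLh against rFsh (gstcd, sesn2 and duox, all lower, of 675 genes, 3.19%). The 12 fish leave out rFsh 62, rLh 68 and saline 68, and the limit given above for the calls on 12 fish holds here too. Leaving out each fish in turn gave 0 to 4 members for rFsh against saline and 0 to 0 for each of the others. The 4 came without rFsh 69 (txndc5, gsr, msra and nfe2l3, of 998 genes, 4.72%) and 1 without saline 68 (nfe2l3, of 633 genes, 2.99%). Both fish lay toward the other group, so leaving out either widens the difference by construction. With each fish left out in turn, the median log2 fold change ran from 0.01 to 0.07 for rFsh against saline, from -0.05 to 0.01 for rLh against saline and from -0.09 to -0.03 for rLh against rFsh. The other scalings, filters and forms of the edgeR test called 0 members. The shares of all genes in these fits, in edgeR on 12 fish and under the block below are not given here, so their 0 is no result about the members.

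1 alternative, leaving out rFsh 69 and saline 68 together, was chosen after seeing the data. These fish were picked because they lay toward the other group, which widens the difference between the groups by construction, so its counts are given for completeness and support nothing, and the ranges over 27 other settings leave it out. edgeR then called 7 members of 2854 genes (13.5%) for rFsh against saline, 0 for rLh against saline and 2 of 223 (1.06%) for rLh against rFsh. DESeq2 called 11 of 4238 (20.1%), 4 of 1428 (6.77%) and 7 of 1532 (7.26%).

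With the fish number as a replicate block, edgeR called 0 members, and the median for rLh against rFsh was -0.13. Whether equal numbers pair the samples is not known, and so few pairs cannot decide it. Saline and rLh share all 5 of their numbers. Over 9 same-numbered pairs the correlation of deviations from the group means ran from -0.25 to 0.48, the latter for rLh 63 and saline 63. It was over 0.1 in 1 pair and was highest with the own number in 2. The numbers of rFsh 61, 62 and 69 occur in no other group, so under the block the rFsh comparisons rest on rFsh 64 and 68. Up to 19 of 61 members, none of them called, changed sign under the block. For rFsh against saline, 7 of these had a value beyond 1 SE in the main fit. No called value changed sign under an alternative, but the main edgeR fit called 0 members, so this says little. The rule of weighing sign changes only for called members was set after the first values were seen. The cause of the shifts in median and sign was not tested. Genes under the minimum of 50 counts are outside the fits. With 5 fish per group, the interval of a fold change gives the differences compatible with the data and is not a limit of detection. A member that was not called may thus still differ by any value within its interval.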
